A study of Mus musculus with 3 samples.

Results

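The DEAD and DEAH box RNA helicases are the genes whose symbols begin with Ddx or Dhx and a number, taken here through their rows of the class protein_coding in either of 2 deposited tables. They came to 26 genes (20 Ddx and 6 Dhx) of 6505 protein-coding symbols in the tables. The tables listed RNAs recovered by immunoprecipitation (RIP) of Mettl3 or of Zfp217 from nuclei of CCE cells, a mouse embryonic stem cell line grown without feeder cells in serum and leukaemia inhibitory factor, with no treatment. There were 3 libraries, 1 of the Mettl3 RIP (Bethyl antibody), 1 of the Zfp217 RIP (Santa Cruz antibody) and 1 of the input, all from untreated CCE cells, for which the labels name no genetic change. The labels do not name separate cultures. No control antibody's RIP was analysed here, and with 1 library per group no test between groups was possible. The tables held only transcripts with at least 1 FPKM in the RIP (fragments counted per kilobase of transcript, scaled to the library's mapped fragments) and at least 1.5-fold above the input, so a gene that was not listed may have been below either limit. Every listed member was therefore higher in the RIP than in the input by the way the tables were made, and that direction is not a result.

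DEAD and DEAH box proteins use ATP to unwind or clamp short stretches of RNA or to strip proteins from it. DEAD box enzymes mostly open short duplexes locally, and DEAH box enzymes mostly pull on a single strand from one end. Both families act in splicing, ribosome assembly, mRNA export, translation and RNA decay. Mettl3 methylates mRNA adenosines to m6A, and Zfp217 carries zinc fingers and works with chromatin regulators.

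The family names come from 4 residues of the ATP-binding core, Asp-Glu-Ala-Asp or Asp-Glu-Ala-His, which bind and hydrolyse ATP. The coding bases of that core are shown for 13 listed members, because they show how well symbol and motif match. They were taken in frame from the longest coding sequence of each gene in GENCODE M21 (GRCm38), with the 12 bases of the motif in capitals and 9 bases on each side.
Ddx3x: ctggtgttaGATGAAGCTGACcggatgtta
Ddx5: cttgtccttGATGAAGCTGATaggatgctt
Ddx17: cttgtgttgGATGAGGCTGACcggatgctt
Ddx6: atagtgctaGATGAGGCAGATaaattgttg
Ddx54: gtggtgttcGATGAAGCAGACaggctcttt
Ddx21: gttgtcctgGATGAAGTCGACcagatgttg
Ddx39b: tttattttgGACGAGTGTGACaagatgctt
Ddx58: atgatatttGATGAGTGTCATaacactagc
Ddx11: gtcattattGACGAGGCTCACaacctgatc
Dhx37: gtgatcattGACGAAGCCCATgagcggagc
Dhx33: gtcattttgGACGAGGCCCATgagcggact
Dhx8: attatgttgGATGAAGCACACgagaggacc
Dhx30: gtcattgtgGATGAGGTCCATgagcgggat

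The last coding triplet of the motif separated most of the families, GAT or GAC (Asp) in Ddx genes and CAT or CAC (His) in Dhx genes. Of the 20 listed Ddx genes, 14 had the DEAD codons, 2 had DECD (Ddx39 and Ddx39b), 2 had DEVD (Ddx21 and Ddx28), and Ddx11 and Ddx58 had a His codon at the end (DEAH and DECH). Of the 6 listed Dhx genes, 3 had DEAH, 2 had DEVH (Dhx30 and Dhx34) and in Dhx32 no such motif was found. The DEAD codons of Ddx26b lay at codon 596 of 861. Ddx26b is called Ints6l in GENCODE M21, a relative of an Integrator subunit and not known as a helicase. The symbol is therefore a looser label than the motif, and the 2 groups are called Ddx and Dhx below.

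The listed share of Ddx genes was above that of Dhx genes in both tables, with a wider gap in the Mettl3 table. Of 38 Ddx genes, 15 were listed for Mettl3 (39.5%) and 15 for Zfp217 (39.5%). The 38 are the Ddx genes annotated in GENCODE M21 and Ddx26b, which is annotated there as Ints6l. Ddx26b entered the count only because it was listed, and it was listed for both antibodies, so it raises both shares. Of 16 annotated Dhx genes, 2 were listed for Mettl3 (12.5%) and 5 for Zfp217 (31.2%). Over all 21924 protein-coding genes of the annotation, silent ones included, the shares were 21.7% and 17.3%. These shares count only genes with a listed transcript found in GENCODE M21 (4750 and 3782), though the tables held 5311 and 4311 protein-coding symbols. Ddx and Dhx genes were counted by symbol, and Ddx6, Ddx43, Dhx30 and Dhx37 had no listed coding transcript found there. The shares were thus not counted alike, and those over all genes are the stricter count. With so few Dhx genes each one moves the share by several points, and no test of the difference was made. Listed for both antibodies were 10 Ddx genes (Ddx5, Ddx6, Ddx11, Ddx20, Ddx26b, Ddx28, Ddx39, Ddx39b, Ddx54 and Ddx55) and 1 Dhx gene (Dhx37). Listed for Mettl3 only were Ddx3x, Ddx17, Ddx19b, Ddx21, Ddx46 and Dhx33. Listed for Zfp217 only were Ddx4, Ddx10, Ddx43, Ddx47, Ddx58, Dhx8, Dhx30, Dhx32 and Dhx34. The 11 shared genes were 64.7% of the members in the Mettl3 table and 55% of those in the Zfp217 table. Over all protein-coding genes listed through transcripts found in GENCODE M21, again not counted alike, the shares were 56.1% and 70.5%. The 2 tables share 1 input, and a transcript that is low there is raised in both at once.

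**Figure D1:**
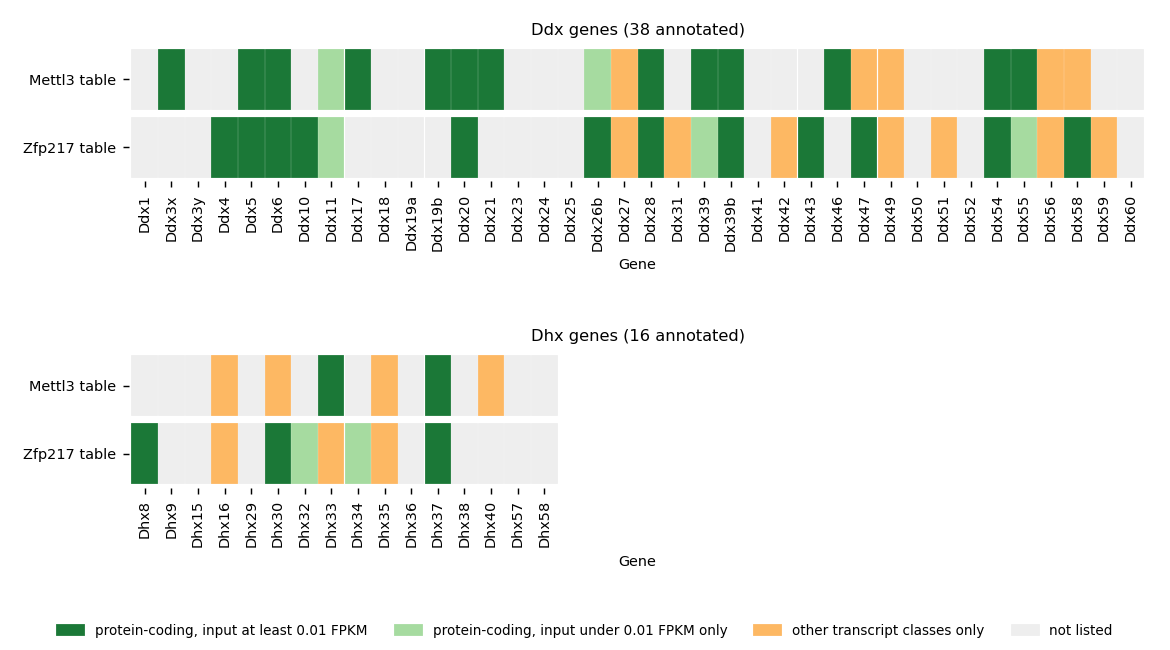
Each column is 1 gene and each row 1 table, for 38 Ddx genes (top) and 16 Dhx genes (bottom). The genes are those annotated in GENCODE M21 as Ddx or Dhx, and Ddx26b, annotated there as Ints6l. Dark green marks a protein-coding transcript with an input of at least 0.01 FPKM, pale green one with an input below that only, orange other transcript classes only and grey no listing. Of the Dhx genes, Dhx33 and Dhx37 are green in the Mettl3 row, and Dhx8, Dhx30, Dhx32, Dhx34 and Dhx37 in the Zfp217 row.

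By role, most groups were listed in part for both antibodies. Of 12 spliceosomal helicases 4 were listed for Mettl3 and 3 for Zfp217, with 2 in both. Of 16 helicases of ribosome biogenesis 5 were listed for each antibody, 3 of them the same. Of 12 helicases of mRNA export, translation and decay 4 and 3 were listed, with 2 in both. Of 3 sensors of viral RNA 0 and 1 had a coding transcript listed for Mettl3 and Zfp217, and of 2 germ line helicases 0 and 2, numbers too small to set against the shares of all genes. There were 18 genes in neither table in any class, among them Ddx1, Ddx18, Ddx23, Ddx24, Ddx41, Ddx50, Ddx52, Dhx9, Dhx15, Dhx29, Dhx36, Dhx38 and Dhx57. A further 10 genes were listed only through other transcript classes. Of 22 RNA helicases with other symbols, 6 were listed for Mettl3 and 5 for Zfp217. Dicer1, which cuts microRNA precursors, was 3.03-fold higher in the Mettl3 RIP (8.09 FPKM against 2.67 in the input) and 2.37-fold higher in the Zfp217 RIP (6.39 against 2.69).

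In the following, each value is that of 1 listed transcript, and the interval in parentheses is a 95% counting interval from estimated read numbers. Without replicates it covers counting error only, and it says nothing of the spread between cultures or immunoprecipitations. In bulk RNA of this kind, fewer cells with a transcript and less RNA per cell cannot be told apart. Depth was estimated at 9.49e+06 scaled fragments for the Mettl3 RIP, 6.94e+06 for the Zfp217 RIP and 5.72e+06 for the input. Folds are left out for inputs under 0.01 FPKM. The input value differs slightly between the tables: it in the Mettl3 table was 0.989 times that in the Zfp217 table at the median.

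The most abundant listed helicase mRNAs were barely above the limit of the Mettl3 table, and most of them were not in the Zfp217 table. Ddx3x, which helps ribosomes start on structured mRNAs, was at 66.6 FPKM in the Mettl3 RIP and 43.0 FPKM in the input, 1.55-fold higher (1.44 to 1.66). The paralogues Ddx5 and Ddx17 act in splicing and in the processing of primary microRNAs. The main Ddx5 transcript ENSMUST00000021062 was at 54.4 FPKM in the Mettl3 RIP and 34.3 FPKM in the input, 1.59-fold higher (1.45 to 1.74). Ddx17 was at 45.2 FPKM in the Mettl3 RIP and 30.0 FPKM in the input, 1.51-fold higher (1.39 to 1.64). Ddx46, which prepares the U2 snRNP for the branch point, was at 14.3 FPKM in the Mettl3 RIP and 9.20 FPKM in the input, 1.56-fold higher (1.36 to 1.79). All of these intervals lay above 1 and included the 1.5-fold limit of the table.

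Ddx21, a nucleolar helicase of rRNA transcription and processing, was at 56.8 FPKM in the Mettl3 RIP and 33.9 FPKM in the input, 1.68-fold higher (1.55 to 1.81). Its interval lay just above 1.5. None of these 5 genes had this transcript in the Zfp217 table. At the 1.5-fold limit, a listing there would have needed 65.2 FPKM for Ddx3x, 52.1 for Ddx5, 45.5 for Ddx17, 51.4 for Ddx21 and 13.9 for Ddx46. No source used here says whether all transcripts past the limits were listed. In the Mettl3 table, the 6 helicase transcripts whose input reached 9 FPKM, Ddx6 included, had folds of 1.51 to 1.68. Over all 357 protein-coding transcripts of that table with such an input, the median was 1.86 and the quartiles 1.66 and 2.33. As a description, 5 of the 6 thus lay under the lower quartile, and Ddx21 just above it. In the Zfp217 table only Ddx6 (2.34) and Ddx47 (1.51) had such an input, and they lay above the upper and under the lower quartile of all 170 such transcripts (1.57 and 2.04, with a median of 1.71). The limit of 9 FPKM lay just under the input of Ddx46 (9.20 FPKM, Mettl3 table). It lay just above that of Dhx8 in the Zfp217 table (8.99 FPKM, 1.88-fold), so both sets depend on it.

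Ddx6, which activates decapping and represses translation in P-bodies, was the most abundant member of the Zfp217 table. It was at 24.6 FPKM in the Zfp217 RIP and 10.5 FPKM in the input, 2.34-fold higher. In the Mettl3 RIP it was at 16.4 FPKM against 10.4 FPKM in the input, 1.57-fold higher. Its ratio was thus larger in the Zfp217 RIP, with a Mettl3 fold of 0.674 times the Zfp217 fold. Its transcript has no length in GENCODE M21, so no counting interval is given. The gene lies on chromosome 9 from 44604892 to 44640731 (plus strand, GRCm38).

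Dhx8, Ddx10 and Ddx47 were also abundant in the Zfp217 RIP and were not in the Mettl3 table as coding transcripts. Dhx8, which releases spliced mRNA from the spliceosome (the role of its yeast counterpart Prp22), was at 16.9 FPKM in the Zfp217 RIP and 8.99 FPKM in the input, 1.88-fold higher (1.60 to 2.22). Ddx10, a nucleolar helicase of the small ribosomal subunit in yeast, was at 12.9 FPKM in the Zfp217 RIP and 7.11 FPKM in the input, 1.82-fold higher (1.46 to 2.27). Ddx47, of the same process in yeast, was at 15.8 FPKM in the Zfp217 RIP and 10.5 FPKM in the input, 1.51-fold higher (1.17 to 1.95). All 3 intervals lay above 1, and that of Ddx47 began well under 1.5. A listing for Mettl3 would have needed 13.3 FPKM for Dhx8, 10.6 for Ddx10 and 15.6 for Ddx47.

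**Figure D2:**
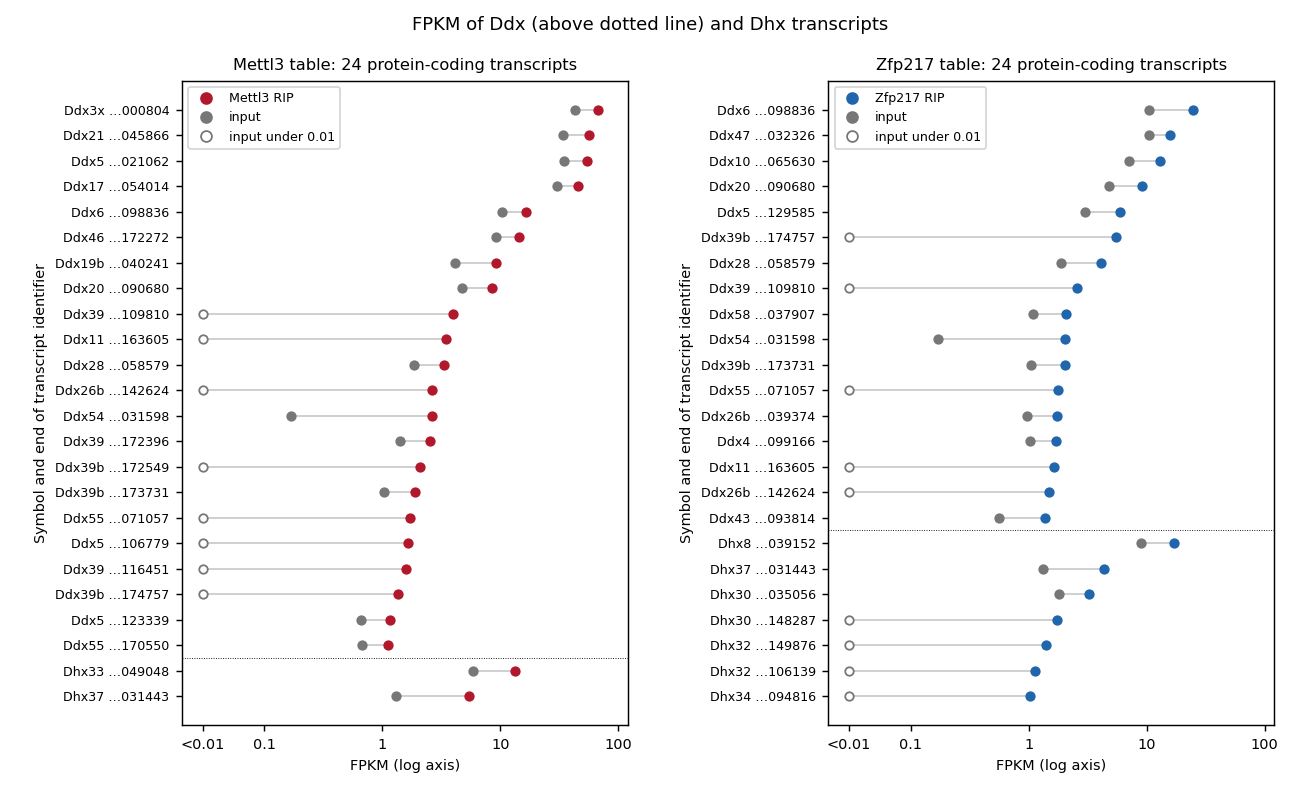
FPKM of each listed protein-coding transcript in the RIP (coloured) and the input (grey) on a log axis, for the Mettl3 table (left) and the Zfp217 table (right); open points at the left edge stand for inputs under 0.01 FPKM and are not to scale. Ddx3x, Ddx21, Ddx5 and Ddx17 stand at 45.2 to 66.6 FPKM in the Mettl3 RIP. These transcripts are not listed for Zfp217 and have no value there. At the 1.5-fold limit, a listing would have needed 45.5 (Ddx17) to 65.2 FPKM (Ddx3x). The highest listed member in the Zfp217 RIP is Ddx6 at 24.6 FPKM, so the panels do not compare levels between the antibodies.

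The highest ratios among members with a measurable input were those of Ddx54 and Dhx37, both of ribosome biogenesis, while Ddx10, Ddx21, Ddx47 and a Ddx55 transcript of the same role lay between 1.51 and 1.82. Ddx54, a nucleolar helicase of the large ribosomal subunit, was at 2.61 FPKM in the Mettl3 RIP against 0.169 FPKM in the input, 15.4-fold higher (5.87 to 57.0). It was at 2.05 FPKM in the Zfp217 RIP against 0.171 FPKM in the input, 12-fold higher (4.48 to 44.5). The input held only about 4.05 reads of it, which makes both intervals wide and lets them overlap. The RIPs held about 104 reads (Mettl3) and 59.5 reads (Zfp217). Ddx54 has 1 protein-coding transcript in GENCODE M21 and lies on chromosome 5 from 120612739 to 120628592 (plus strand, GRCm38).

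Dhx37, whose yeast counterpart Dhr1 frees the U3 snoRNA from the maturing small subunit, was the Dhx gene listed for both antibodies. It was at 5.38 FPKM in the Mettl3 RIP against 1.30 FPKM in the input, 4.13-fold higher. It was at 4.31 FPKM in the Zfp217 RIP against 1.32 FPKM in the input, 3.27-fold higher. These were the highest folds among members with at least 1 FPKM in both RIP and input in either table. The listed transcript has no length in GENCODE M21, so no interval is given. The gene lies on chromosome 5 from 125413858 to 125434121 (minus strand, GRCm38).

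Dhx33, a nucleolar helicase of rRNA synthesis, was at 13.3 FPKM in the Mettl3 RIP against 5.91 FPKM in the input, 2.25-fold higher (1.73 to 2.96). The deposited class of this transcript is protein-coding, while GENCODE M21 gives it as subject to nonsense-mediated decay with an incomplete coding start. It was the second Dhx gene of the Mettl3 table, and this transcript was not listed for Zfp217, where 8.96 FPKM would have been needed. Ddx55, of the large subunit in yeast, was at 1.71 FPKM in the Mettl3 RIP and 1.78 FPKM in the Zfp217 RIP, with an input under 0.01 FPKM in both tables. A second Ddx55 transcript was at 1.12 FPKM in the Mettl3 RIP against 0.668 FPKM in the input, 1.68-fold higher.

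Among helicases of mRNA export, Ddx19b, which remodels mRNPs at the cytoplasmic face of the nuclear pore, was at 9.19 FPKM in the Mettl3 RIP against 4.12 FPKM in the input, 2.23-fold higher (1.86 to 2.68). Its reads may be shared with the near copy Ddx19a, which holds 47.0% of the windows of 50 bases of its coding sequence, so this value is uncertain. Ddx39 and Ddx39b are paralogues that load onto mRNA for splicing and export, and share no such window. The 1794-base Ddx39 transcript was at 3.93 FPKM in the Mettl3 RIP and 2.59 FPKM in the Zfp217 RIP, and was listed at 0 FPKM in the input. A longer one of 3836 bases was at 2.52 FPKM in the Mettl3 RIP against 1.4 FPKM in the input, 1.80-fold higher (1.18 to 2.83). Another Ddx39 transcript was at 1.59 FPKM in the Mettl3 RIP and at 0 FPKM in the input. The near-zero input thus belonged to single transcripts and not to the gene.

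Ddx39b showed the same split. A 759-base transcript with an incomplete coding end was at 1.37 FPKM in the Mettl3 RIP and 5.48 FPKM in the Zfp217 RIP, and was listed at 0 FPKM in the input. A 2848-base transcript was at 1.88 FPKM in the Mettl3 RIP against 1.04 FPKM in the input, 1.80-fold higher (1.01 to 3.40). In the Zfp217 RIP this transcript was at 2.02 FPKM against 1.05 FPKM, 1.92-fold higher (1.05 to 3.67). The 1770-base Ddx39b transcript was at 2.10 FPKM in the Mettl3 RIP, with an input under 0.01 FPKM. Minor Ddx5 transcripts behaved likewise. One of 496 bases, no longer classed as coding in GENCODE M21, was at 1.64 FPKM in the Mettl3 RIP and at 0 in the input, from about 5.57 reads. One of 831 bases was 1.75-fold higher in the Mettl3 RIP (0.390 to 11.9), and one of 861 bases was at 5.91 FPKM in the Zfp217 RIP against 3.02 FPKM in the input, 1.96-fold higher (0.981 to 4.15). Both of these intervals include 1.

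Of the members with other roles, Ddx20, the SMN complex helicase also called Gemin3, was close in both RIPs. It was at 8.55 FPKM in the Mettl3 RIP against 4.71 FPKM in the input, 1.81-fold higher (1.39 to 2.39), and at 9.19 FPKM in the Zfp217 RIP against 4.77 FPKM, 1.93-fold higher (1.46 to 2.56). The mitochondrial helicase Ddx28 was at 3.34 FPKM in the Mettl3 RIP against 1.87 FPKM in the input, 1.79-fold higher (1.10 to 3.01), and at 4.07 FPKM in the Zfp217 RIP against 1.89 FPKM, 2.15-fold higher (1.31 to 3.65). For both genes the intervals of the 2 antibodies overlapped widely. Dhx30, which acts in mitochondrial ribosome assembly, was at 3.27 FPKM in the Zfp217 RIP against 1.81 FPKM in the input, 1.80-fold higher. A second Dhx30 transcript was at 1.74 FPKM in the Zfp217 RIP and at 0 FPKM in the input. Ddx11, a DNA helicase of sister chromatid cohesion, was at 3.43 FPKM in the Mettl3 RIP and 1.63 FPKM in the Zfp217 RIP, with an input under 0.01 FPKM in both tables.

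The sensor of viral RNA Ddx58 (RIG-I) was listed as a coding transcript for Zfp217 only, at 2.07 FPKM against 1.09 FPKM in the input, 1.89-fold higher (1.15 to 3.22). A processed transcript of Ddx58 was in the Mettl3 table, at 5.10 FPKM against 2.43 FPKM in the input. The germ line helicases were also in the Zfp217 table only. Ddx4, the mouse Vasa, was at 1.70 FPKM in the Zfp217 RIP against 1.02 FPKM in the input, 1.66-fold higher with an interval that includes 1 (0.899 to 3.18). Ddx43 was at 1.36 FPKM in the Zfp217 RIP against 0.562 FPKM in the input, 2.43-fold higher. Of 3 germ line markers, Ddx4 itself and Mael (1.5 FPKM) were listed for Zfp217, and Dazl (1.58 FPKM) and Mael (1.08 FPKM) for Mettl3, and their part in these values was not tested. Of 9 stem cell markers, 5 were listed in each table (Pou5f1, Nanog, Sox2, Esrrb and Klf4), at 8.54 to 75.8 FPKM in the Mettl3 RIP and 5.13 to 90 FPKM in the Zfp217 RIP. Their inputs, in that order, were 0, 14.6, 42.2, 0.00921 and 0.00253 FPKM in the Mettl3 table. In the Zfp217 table they were 2.82, 18.6, 42.7, 0.0109 and 0.00299 FPKM. These are inputs of single listed transcripts, which may differ between the tables, and not levels of the gene. Of 4 fibroblast markers, Vim alone was listed, at 18.2 FPKM in the Mettl3 RIP and 19.7 FPKM in the Zfp217 RIP, against 0.0217 and 0.0256 FPKM in the input.

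Ddx26b had 1 transcript of 719 bases, with an incomplete coding start, at 2.62 FPKM in the Mettl3 RIP and 1.48 FPKM in the Zfp217 RIP, listed at 0 FPKM in the input. A full transcript of 3766 bases was at 1.74 FPKM in the Zfp217 RIP against 0.975 FPKM in the input, 1.78-fold higher (1.03 to 3.19). Dhx32 had 2 transcripts in the Zfp217 RIP, at 1.39 and 1.13 FPKM. Dhx34, which acts in nonsense-mediated decay, was at 1.03 FPKM in the Zfp217 RIP. The transcripts of Dhx32 and Dhx34 were listed at 0 FPKM in the input, with about 4.06, 16.4 and 28.2 reads in the RIP. Of the 24 member transcripts in each table, 8 in the Mettl3 table and 9 in the Zfp217 table had such an input under 0.01 FPKM. Counted by gene, in the coding transcript with the highest mean FPKM, 17.65% (Mettl3) and 30% (Zfp217) of the members had it. Over all listed protein-coding genes the shares were 22.2% and 32.4%, so such inputs were not particular to the helicases.

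**Figure D3:**
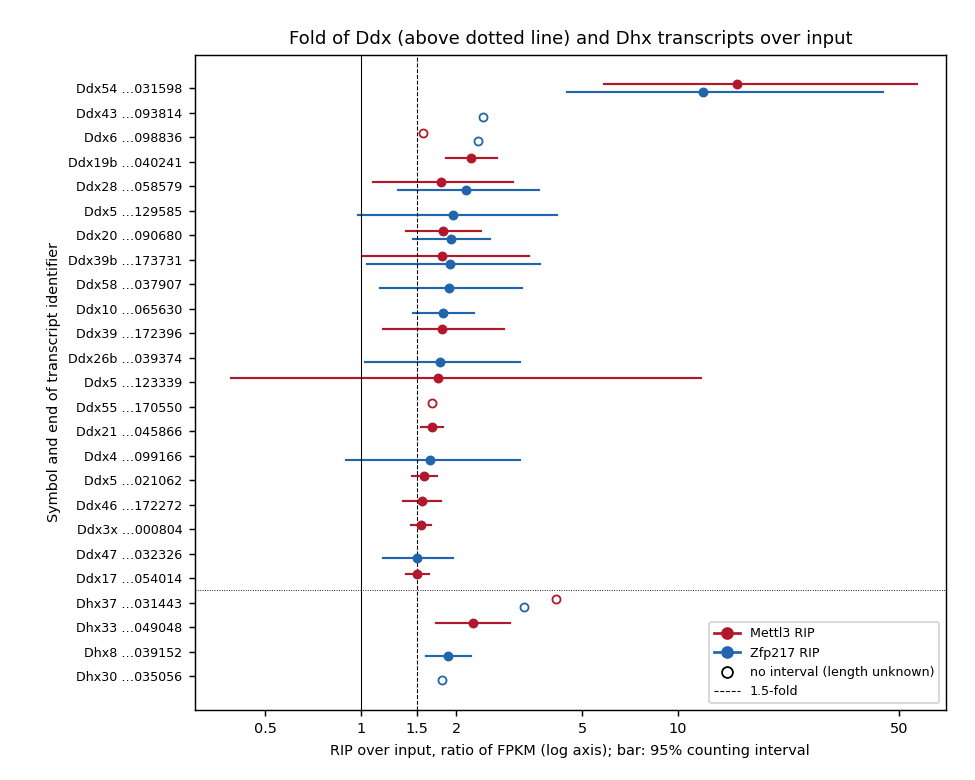
Ratio of RIP over input FPKM on a log axis for member transcripts with an input of at least 0.01 FPKM, with 95% counting intervals as bars; open points have no interval, and the dashed line marks the 1.5-fold limit of the tables. Ddx54 stands apart at 15.4-fold (Mettl3) and 12-fold (Zfp217), and 12 of 14 Ddx folds for Mettl3 lie under 2. The share under 2-fold over all listed transcripts is not shown.

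By family, the values are given as counts and medians, since the Dhx transcripts with a fold were 2 for Mettl3 and 3 for Zfp217 and no test was made. For Mettl3, 12 of 14 Ddx transcripts with a fold were under 2-fold, against 0 of 2 Dhx transcripts. For Zfp217, 8 of 12 Ddx and 2 of 3 Dhx transcripts were under 2-fold. Both tables begin at 1.5-fold, and the share under 2-fold over all listed coding transcripts with a fold was not computed. Among those with an input of at least 9 FPKM, 59.4% (Mettl3) and 74.1% (Zfp217) of all coding transcripts were under 2-fold. For the helicases with such an input it was 100% of 6 and 50% of 2. The counts are therefore not read as a trait of either family. In the coding transcript of each listed gene with the highest mean FPKM, the median RIP level was 8.55 FPKM for 15 Ddx genes (range 1.12 to 66.6) and 9.34 FPKM for 2 Dhx genes (5.38 and 13.3) in the Mettl3 RIP. The input medians were 4.12 FPKM and 3.61 FPKM. In the Zfp217 RIP the medians were 2.59 FPKM for 15 Ddx genes (1.36 to 24.6) and 3.27 FPKM for 5 Dhx genes (1.03 to 16.9), with input medians of 1.02 FPKM and 1.32 FPKM. The levels of both families overlapped in each RIP. The medians are not compared between the RIPs, because only 10 Ddx genes were listed in both tables and the transcript used for a gene could differ. For Ddx5 it was the main transcript in the Mettl3 RIP (54.4 FPKM) and the one of 861 bases in the Zfp217 RIP (5.91 FPKM).

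On the scale log2((RIP + 1)/(input + 1)), genes with a mean of RIP and input of at least 1 FPKM were kept. The median log2 ratio in the Mettl3 RIP was 0.69 for 14 Ddx genes and 1.26 for 2 Dhx genes, a difference of -0.57, beside 0.95 for all 4323 kept protein-coding genes. In the Zfp217 RIP it was 0.80 for 12 Ddx genes and 0.84 for 3 Dhx genes, a difference of -0.048, beside 0.88 for all 3244 kept genes. The Zfp217 difference turned to 0.034 with a pseudocount of 0.1 FPKM, and the Mettl3 difference rests on 2 Dhx genes. At least 2-fold higher on this scale were 6 of 16 kept helicase genes in the Mettl3 RIP (37.5%), where 46.2% of all kept protein-coding genes passed. They were Ddx11, Ddx26b, Ddx39, Ddx54, Dhx33 and Dhx37, and 3 of them (Ddx11, Ddx26b and Ddx39) had an input under 0.01 FPKM. For Ddx39 the transcript used was chosen by a mean of 1.965 FPKM against 1.963 FPKM in the one with a measurable input, so its call rests on that choice. In the Zfp217 RIP 5 of 15 passed (33.3%), where 42.7% of all kept genes did, namely Ddx6, Ddx39, Ddx39b, Ddx54 and Dhx37, of which Ddx39 and Ddx39b had such an input. Genes kept with an input near 0 pass this rule by construction. Transcripts with such an input were therefore left out, and another listed coding transcript of the gene was used where there was one. Then 3 of 14 helicase genes (21.4%) passed in each RIP, beside 37.7% (Mettl3) and 27.4% (Zfp217) of all kept genes. Ddx39 (Mettl3) and Ddx39b (Zfp217) stayed in through another transcript and did not pass. With RIP and input both at least 1 FPKM, 2 of 13 (15.4%) passed for Mettl3 beside 34.3% of all kept genes, and 2 of 12 (16.7%) for Zfp217 beside 20.6%. The shares of the helicases lay below those of all genes in these settings, on 12 to 16 genes and without a test. They did not with FPKM summed over the listed coding transcripts of a gene for Zfp217 (8 of 16, beside 48.5% of all kept genes). That sum leaves out unlisted transcripts and their input, so it is not the level of the whole gene. Nor did they with ratios centred on the median for Mettl3 (12.5% beside 12%).

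**Figure D4:**
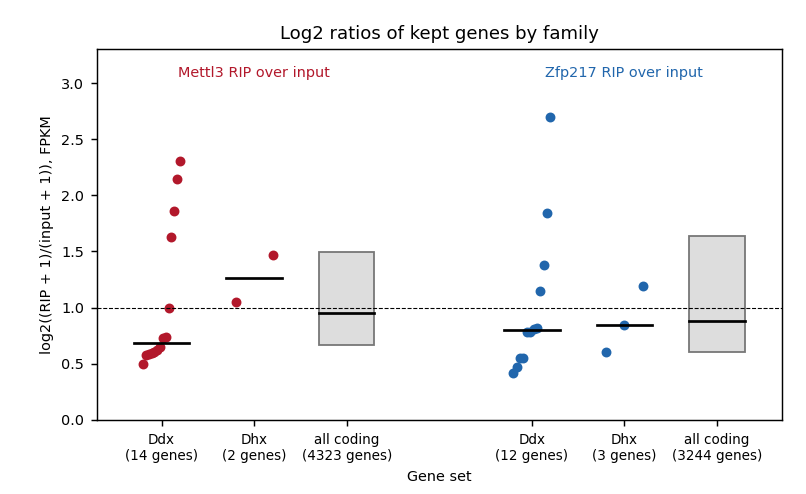
Log2((RIP + 1)/(input + 1)) in FPKM for each kept Ddx and Dhx gene (points, with the median as a black line) and for all kept protein-coding genes (box from the lower to the upper quartile, with the median), for the Mettl3 RIP (left) and the Zfp217 RIP (right). The dashed line marks 2-fold. The Ddx medians are 0.69 and 0.80 and those of all genes 0.95 and 0.88, and most Ddx points lie below the dashed line.

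Between the antibodies, 11 of 37 member transcripts were listed in both tables, 13 for Mettl3 only and 13 for Zfp217 only. Of the 6 shared transcripts with a measurable input, the fold was higher in the Mettl3 RIP for Ddx54 and Dhx37 and higher in the Zfp217 RIP for Ddx6, Ddx20, Ddx28 and Ddx39b. Mettl3 folds were 0.674 to 1.29 times the Zfp217 folds. The 5 with an input near 0 were transcripts of Ddx11, Ddx26b, Ddx39, Ddx39b and Ddx55.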

How the data were processed

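RNA from RIPs of Mettl3 and Zfp217 and from the input of CCE nuclei was sequenced after TruSeq library preparation, per the labels' protocols, with 1 library each. The authors deposited FPKM values per Ensembl transcript in 2 tables, with their log2 fold change, which differed by at most 0.00466 from the one computed here from both FPKM columns. Build mm9 and the tools TopHat2 2.0.8, Bowtie2, Cuffdiff, Cufflinks and CASAVA 1.4 are named in the list per the submitters' processing notes, without roles or settings. The lowest RIP value was 1.00 FPKM and the lowest fold 1.50 in both tables.

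Calculations used Python 3.11.15, pandas 2.3.3, numpy 2.4.6 and scipy 1.17.1. Ratios were taken within a table, with a pseudocount of 1 FPKM, a minimum mean of 1 FPKM and 1 coding transcript per gene (highest mean FPKM). On this scale a fold understates the change of low transcripts. Depth was estimated from short noncoding RNAs, whose low FPKM values step by what 1 read is worth. Low values (up to 10 reads) came out whole, within 0.02 times the read number, in 73 of 74 cases for the Mettl3 RIP, 60 of 62 for the Zfp217 RIP and 13 of 15 and 15 of 16 for the input. The RIP depths were fitted to the lowest values of the same RNAs. The input depth was chosen as the one that made most low values whole, with the fragment lengths fitted for the Mettl3 RIP. These counts are therefore not an independent check of depth, least of all for the input. Reads were estimated from transcript lengths in GENCODE M21 (GRCm38), which held 30 of 37 member transcripts, and need not equal lengths in the authors' annotation. Intervals use the Clopper-Pearson formula on these estimated reads. The check on simulated data drew whole read counts with a known scale, so it covered the formula only. Error in depth, in transcript length and in the assignment of reads between transcripts of a gene is neither in the intervals nor in that check. By rule, every gene with a listed coding transcript is named. No coordinates were converted between builds. Members and lists were chosen with earlier results of these data known. No p-value was computed.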

Additional observations from a re-analysis of the deposited data

Results flagged for a closer look

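Helicase transcripts outside the protein-coding class numbered 14 in each table, of which 7 (Mettl3) and 8 (Zfp217) had an input of 0 FPKM. Across both tables, 3 transcripts of these classes were at least 2-fold higher on the log2((RIP + 1)/(input + 1)) scale. The mean had to be at least 1 FPKM and the input at least 0.01 FPKM. These 3 are given because the comparisons above leave their classes out. The share of all listed transcripts of these classes that passed was not computed, so the count is not read as a trait of the helicases. A processed transcript of Dhx33 (ENSMUST00000146203, 1422 bases) was at 5.01 FPKM in the Zfp217 RIP against 0.216 FPKM in the input, 23.2-fold higher. Its counting interval was 5.31 to 295, from about 1.59 input reads. GENCODE M21 gives this transcript as subject to nonsense-mediated decay with an incomplete coding start. The Dhx33 transcript deposited as coding was listed for Mettl3 and not for Zfp217. A retained-intron transcript of Ddx27 was at 1.88 FPKM in the Mettl3 RIP against 0.357 FPKM in the input, 5.25-fold higher, with an interval that includes 1 (0.751 to 202). A processed transcript of Ddx31 was at 3.25 FPKM in the Zfp217 RIP against 0.877 FPKM in the input, 3.71-fold higher, also with an interval that includes 1 (0.913 to 25.1).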

How the results depend on the processing

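For the Mettl3 RIP, the count of helicase genes past 2-fold (6) became 2 when RIP and input both had to reach 1 FPKM. It became 3 without transcripts whose input was under 0.01 FPKM, and 2 after centring on the median of all kept genes. For the Zfp217 RIP (5) it became 2, 3 and 1 under the same settings. It was 9 without the filter on low values and 8 with FPKM summed over the listed coding transcripts of a gene. Centring took 0.95 (Mettl3) and 0.88 (Zfp217) from every log2 ratio and left 12% and 17.4% of all kept genes past the rule. The Ddx minus Dhx difference for Mettl3 (-0.57) ran from -0.76 to -0.52 over its alternatives. For Zfp217 (-0.048) it was -0.21 without the filter, -0.33 with summed FPKM, and turned to 0.034 with a pseudocount of 0.1 FPKM; the cause was not tested. Listed genes (26) came to 36 with any transcript class and 19 with an input of at least 1 FPKM. No paired analysis was possible because each group has 1 library, and no library could be left out for the same reason. Depth limits the low values: 3 member transcripts in the Mettl3 RIP and 2 in the Zfp217 RIP had under 10 estimated reads, among those with a length in GENCODE M21.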

Other observations

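Of the helicase transcripts listed, 14 of 38 (36.8%) in each table belonged to classes other than protein-coding, close to the share over all listed transcripts (32.6% for Mettl3 and 37.4% for Zfp217). They were 6 of 28 Ddx and 8 of 10 Dhx transcripts for Mettl3, and 9 of 26 Ddx and 5 of 12 Dhx transcripts for Zfp217. The 8 Dhx transcripts came from 4 genes (Dhx16, Dhx30, Dhx35 and Dhx40), and no test was made. Of the helicase transcripts in these other classes, 10 of 14 in the Mettl3 table and 9 of 14 in the Zfp217 table were retained-intron transcripts. The share over all listed transcripts of these classes was not computed, so this is not read as a trait of the helicases. Dhx16, a spliceosomal helicase, was listed through retained-intron transcripts only, the highest at 11 FPKM in the Mettl3 RIP against 5.08 FPKM in the input, 2.17-fold higher (1.30 to 3.76), and at 8.96 FPKM in the Zfp217 RIP against 5.14 FPKM, 1.74-fold higher (1.004 to 3.12). A retained-intron transcript of Dhx35 was 3.50-fold higher in the Mettl3 RIP (1.41 to 10.7) and 4.47-fold higher in the Zfp217 RIP (1.79 to 13.7). Dhx30 was at 5.57 FPKM in the Mettl3 RIP through a retained-intron transcript listed at 0 FPKM in the input. With these classes counted, 9 of 16 Dhx and 27 of 38 Ddx genes were listed in either table, and the share over all genes was not computed.

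The pentamer GGACT, 1 form of the m6A consensus, was counted on the sense strand of the listed coding transcripts found in GENCODE M21, overlaps included. The median was 1.4 per kb in 19 Ddx transcripts of the Mettl3 table, beside 0.972 per kb in all 5593 coding transcripts of that table, and 1.33 per kb in 15 Ddx transcripts of the Zfp217 table, beside 1.02 per kb in all 4428. It was 0.883 per kb in the 1 Dhx transcript found for Mettl3 and had a median of 0.722 per kb in 4 for Zfp217. The counts are of transcripts and not of genes, also over all coding transcripts. Ddx5, Ddx39 and Ddx39b each gave more than 1 transcript for Mettl3, and Ddx26b, Ddx39b and Dhx32 did for Zfp217. The difference from all transcripts is therefore not read as a trait of the Ddx genes, and it was not tested. At least 1 match was held by 89.5% of the Ddx transcripts and 88.7% of all transcripts for Mettl3, and by 93.3% and 84.4% for Zfp217. Among the abundant members, Ddx3x had 2 matches in 4692 bases and Ddx21 had 6 in 4722 bases. These are counts of letters in reference sequence, and no methylation was measured.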
